A study of Mus musculus with 6 samples.

Results

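The comparison set open chromatin of the e11.5 mouse face in the libraries labelled maxillary process against those labelled nose, with peak lists cut to equal length. The maxillary process is the part of the first pharyngeal arch that forms the upper jaw and cheek, and the nose tissue holds the nasal processes and the olfactory epithelium. The best 200000 lines of each of 4 deposited peak lists were merged into 205772 regions. The regions described are those that 2 libraries with the same label share and that both libraries with the other label lack. There were 26043 such regions, 12.7% of all merged regions. Of them, 13767 were called in both maxillary-labelled libraries and neither nose library (6.69% of the merged regions), and 12276 in both nose libraries and neither maxillary-labelled library (5.97%). For comparison, 60615 regions (29.5%) were called in all 4 libraries and 84076 (40.9%) in 1 library only.

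Each library came from freshly dissected wild-type mouse embryonic face tissue of mixed cell types, with 2 libraries per label and 2 further libraries labelled mandibular process, the lower-jaw part of the arch. Strain, sex and the number of embryos are not given in the sources used here, nor is it stated that both libraries of a label came from different embryos, so agreement between libraries of a label may be technical. In bulk tissue, a region open in fewer cells and a region less open in each cell cannot be told apart. The assay was ATAC-seq, which reads where the Tn5 transposase can reach the DNA, and a peak marks a place where its insertions pile up. More regions were found with the maxillary label at equal length, and more with the nose label when the lists were used whole (14509 and 22328) or when all lines tied at the limit were kept (12302 and 14361). The ties lay mostly in nose replicate 2, where 2924 of 25012 tied lines were kept by a hash of their position. Nose replicate 1 had 155 tied lines, and the maxillary-labelled lists 24 and 17. Asking for 1 library in place of 2 raised the counts, to 27231 and 49000 maxillary-only regions without maxillary-labelled replicate 1 or 2, and to 31346 and 34860 nose-only regions without nose replicate 1 or 2.

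The names of the files labelled maxillary process carry the code of the other jaw, and regions near a lower-jaw gene leaned to that label over the nose. Hand2, a helix-loop-helix factor that patterns the lower jaw, had 7 regions found with the maxillary label and 0 with the nose label. The maxillary-labelled libraries had 23 and 24 called regions nearest to Hand2, against 13 and 16 in the nose libraries, while the libraries labelled mandibular process had 13 and 14. The regions were merged without the mandibular-labelled lists, so a peak found only there was not counted. Over all merged regions those libraries called 95010 and 96973, against 129486 and 110493 (maxillary-labelled) and 116915 and 114050 (nose). Their counts at Hand2 thus cannot be set beside the others. The tissue is therefore called maxillary-labelled throughout. The other genes looked up to check the labels were less uneven. Dlx5 and Dlx6, lower-jaw homeobox genes, had 2 and 1 maxillary-only regions against 0 and 3 nose-only regions. Hand1 had none of either kind, and the upper-jaw factor Pou3f3 had 2 of each. Of the frontonasal and nasal genes, Alx1 and Pax6 each had 1 maxillary-only and 4 nose-only regions, while Alx4 and Pax3 each had 2 and 2.

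Facial enhancers lie mostly far from promoters and are bound by combinations of transcription factors. In cranial neural crest cells, which build most of the facial mesenchyme, homeodomain factors recognise a TAAT core and helix-loop-helix factors such as Twist1 recognise an E-box, a 6-base site of the form CANNTG. Twist1 and homeodomain factors are known to bind together at a composite site in which the TAAT core and the E-box stand at a fixed distance. In the nose, the olfactory epithelium derives from a placode specified by Eya, Pax and Sox factors.

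The clearest difference between the maxillary-only and the nose-only regions was in their sequence. The GA-centred E-box CAGATG stood within 100 bp of the summit in 29.8% of maxillary-only regions (95% Wilson interval 29.0 to 30.5%) and in 18.2% of nose-only regions (17.6 to 18.9%), where the summit is the point of highest signal given with each peak. It was found in 19.2% of the regions called in all 4 libraries and 20.8% of all merged regions. Windows within 1 kb of a start site were more frequent among the regions called in all 4 libraries, and held the E-box in 7.12%. More than 1 kb from a start site it was in 30.1% of maxillary-only, 18.6% of nose-only and 24.0% of all-4-library regions. There the maxillary-only share lay above that of the regions called in all 4 libraries, and the nose-only share below it. The sequences below show the E-box in maxillary-only regions, and the motifs of strong regions of both kinds and of a nose-only region near Nr2f2. Each is the 201 bp round the summit on the plus strand of GRCm38 (mm10), 5′ to 3′, read from the RefSeq assembly.

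The first 4 windows are maxillary-only. The Hand2 window (chr8:57349411-57349611) lies 28.5 kb from the Hand2 start site in an exon of the noncoding gene 5033428I22Rik, and its capitals mark a GA-centred E-box, a Runx site and an Sp/Klf site. The Mtor window (chr4:148471375-148471575) lies in an intron of Mtor and the Phf3 window (chr1:30656645-30656845) is intergenic, 207 kb from Phf3, and in both the capitals mark 2 GA-centred E-boxes on opposite strands with 5 bp between them. In the Rfpl4b window (chr10:38575864-38576064), intergenic and 246 kb from Rfpl4b, the capitals mark a TAAT core and a GA-centred E-box with 6 bp between them. The last 3 windows were picked for these layouts after the motif counts were known, as the best-ranked regions with each layout, a region ranking by the worse of its ranks in its 2 own libraries.
Hand2 window: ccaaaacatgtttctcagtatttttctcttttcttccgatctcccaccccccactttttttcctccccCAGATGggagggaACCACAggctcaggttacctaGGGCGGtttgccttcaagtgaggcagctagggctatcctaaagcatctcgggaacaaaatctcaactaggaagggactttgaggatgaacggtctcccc
Mtor window: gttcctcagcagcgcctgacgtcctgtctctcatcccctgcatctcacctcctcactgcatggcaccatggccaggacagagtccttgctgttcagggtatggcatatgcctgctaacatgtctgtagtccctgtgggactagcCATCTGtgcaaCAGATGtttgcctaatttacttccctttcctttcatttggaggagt
Phf3 window: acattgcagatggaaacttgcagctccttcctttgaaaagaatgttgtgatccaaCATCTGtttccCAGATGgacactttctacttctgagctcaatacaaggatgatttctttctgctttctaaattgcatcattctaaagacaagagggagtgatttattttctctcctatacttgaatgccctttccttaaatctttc
Rfpl4b window: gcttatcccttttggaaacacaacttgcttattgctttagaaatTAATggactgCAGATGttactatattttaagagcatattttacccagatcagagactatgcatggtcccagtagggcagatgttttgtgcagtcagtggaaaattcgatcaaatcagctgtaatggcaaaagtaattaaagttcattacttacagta

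The Odf1, Agbl1, Ipo5 and Ctnnd2 windows come from the strongest members of each direction, and the Nr2f2 window from a gene named below. Capitals mark the motifs found. Of the 5 best-ranked maxillary-only regions among those without any peak in the whole nose lists, the Odf1 window (chr15:38169787-38169987, intergenic) holds a GC-centred E-box, 2 Runx sites and a Meis site, and the Agbl1 window (chr7:76594619-76594819, intron of Agbl1) holds a GC-centred E-box with Meis, Tead and GG-centred E-box sites. None of these 5 maxillary-only windows holds a GA-centred E-box. The windows nearest to Stim2, Plod2 and Cryz, not printed here, hold none of the E-box motifs searched. Of the 5 best-ranked nose-only regions, chosen in the same way, the Ipo5 window (chr14:120758487-120758687, intergenic) holds a Pou octamer and a Pbx-Hox site, and the Ctnnd2 window (chr15:30467216-30467416, intron of Ctnnd2) holds a GA-centred E-box with Tead and AP-1 sites. The Nr2f2 window (chr7:70390627-70390827, intron of the noncoding gene B130024G19Rik) is nose-only but not among these 5. It is from the strongest nose-only region at Nr2f2 and holds a GA-centred E-box and a Meis site.
Odf1 window: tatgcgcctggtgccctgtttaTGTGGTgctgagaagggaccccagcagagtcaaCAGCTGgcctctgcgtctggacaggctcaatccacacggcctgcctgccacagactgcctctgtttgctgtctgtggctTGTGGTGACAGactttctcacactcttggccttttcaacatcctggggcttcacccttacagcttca
Agbl1 window: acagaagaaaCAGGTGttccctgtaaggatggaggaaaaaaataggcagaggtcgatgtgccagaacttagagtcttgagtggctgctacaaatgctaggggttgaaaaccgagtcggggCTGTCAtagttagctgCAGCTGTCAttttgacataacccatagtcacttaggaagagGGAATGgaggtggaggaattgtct
Ipo5 window: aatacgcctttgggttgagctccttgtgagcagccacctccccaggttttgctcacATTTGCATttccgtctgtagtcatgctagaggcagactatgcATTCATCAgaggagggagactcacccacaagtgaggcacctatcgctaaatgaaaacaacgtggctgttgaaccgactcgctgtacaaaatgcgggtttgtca
Ctnnd2 window: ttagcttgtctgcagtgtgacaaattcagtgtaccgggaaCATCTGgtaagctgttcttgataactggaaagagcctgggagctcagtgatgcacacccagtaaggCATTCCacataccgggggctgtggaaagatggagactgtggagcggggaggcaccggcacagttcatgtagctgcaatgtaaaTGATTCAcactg
Nr2f2 window: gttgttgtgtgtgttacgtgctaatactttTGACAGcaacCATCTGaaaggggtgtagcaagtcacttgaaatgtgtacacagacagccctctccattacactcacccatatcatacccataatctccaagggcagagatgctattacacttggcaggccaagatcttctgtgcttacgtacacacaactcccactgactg

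Regions called in a single library gave a comparison that shared no region with the members. The GA-centred E-box was in 22.3% and 24.5% of the regions found only in maxillary-labelled replicate 1 and only in replicate 2, against 17.9% and 18.1% for nose replicates 1 and 2. Both maxillary-labelled libraries lay above both nose libraries, though by fewer points than in the members. The libraries did not share these regions, but they shared the tissue dissection and the peak processing. With 2 libraries a label, an exact permutation test over libraries cannot go below p = 0.333, so no test was made of the motif shares.

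The E-box difference of 11.52 percentage points (95% interval 10.5 to 12.5, counting error only) was present in each kind of region examined. It was 5.79 points without maxillary-labelled replicate 2 and 8.77 to 10.7 points when another single library was left out. In windows without any annotated repeat the shares were 30.1% in 6007 maxillary-only and 19.9% in 5191 nose-only regions. In introns they were 29.7% and 18.5%, and in intergenic regions 30.4% and 18.1%. Within the windows of 45 to 50% GC content they were 30.6% and 18.5%. In promoters, taken as windows within 1 kb of a start site, the E-box was in 16.8% of 380 maxillary-only regions (interval 13.4 to 20.9%) and 12.5% of 633 nose-only regions (10.1 to 15.3%), and these intervals overlapped.

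The share was higher in the stronger maxillary-only regions. Among the 2193 maxillary-only regions within the best 100000 lines of both own libraries it was 34.9%, against 28.8% of the remaining 11574. In the nose-only regions split the same way it was 20.1% of 1683 and 17.9% of 10593. Maxillary-only regions that were also called in both mandibular-labelled libraries had the E-box in 35.3% (33.7 to 37.0%), against 26.9% (25.9 to 27.9%) of those called in neither. Nose-only regions showed 22.7% and 16.9% for the same division. Thus the maxillary-only regions lay above the nose-only regions whether or not the mandibular-labelled libraries shared them.

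**Figure D1:**
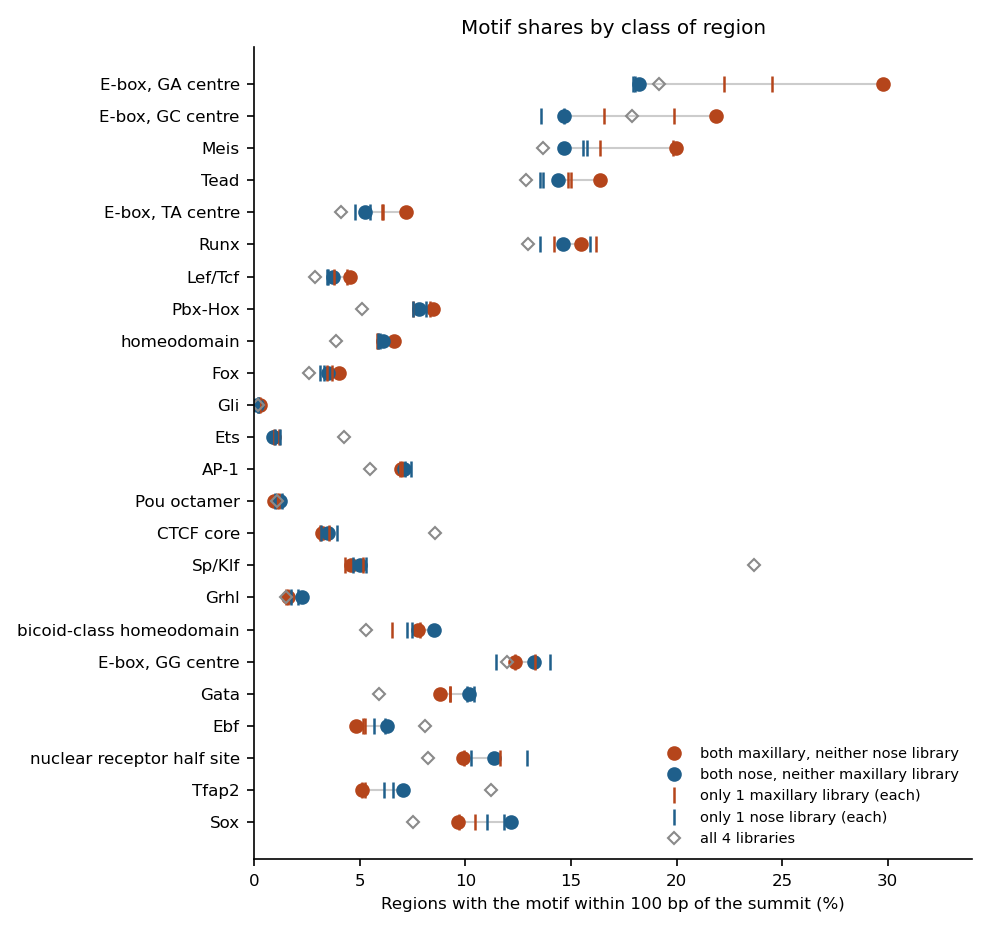
Share of regions with each motif within 100 bp of the summit (x axis, %), by motif (y axis), for regions called in both maxillary-labelled and neither nose library, both nose and neither maxillary-labelled library, a single library, and all 4 libraries. The GA-centred E-box stands at 29.8% in maxillary-only and 18.2% in nose-only regions, and most other motifs differ by under 2.5 points.

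Other motifs followed with smaller differences. The GC-centred E-box CAGCTG was in 21.9% of maxillary-only and 14.7% of nose-only regions (all merged regions 17.3%), and the single-library shares were 16.6% and 19.9% against 13.6% and 14.7%. More than 1 kb from a start site it was in 22.0% of maxillary-only, 14.8% of nose-only and 20.4% of all-4-library regions, nearer to the maxillary-only share. The Meis and Tgif site TGACAG was in 19.997% and 14.6% (all 15.7%), with single-library shares of 16.4% and 19.8% against 15.6% and 15.7%. The TA-centred E-box CATATG was in 7.18% and 5.26% (all 5.20%), and the Tead site GGAATG in 16.4% and 14.4% (all 14.1%). Both Meis factors and Tead factors are widely expressed regulators of mesenchyme.

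Other motifs were more frequent in the nose-only regions. The Sox site ACAATG was in 9.65% of maxillary-only and 12.1% of nose-only regions (all 9.66%). The Tfap2 site GCCNNNGGC, bound by regulators of ectoderm and neural crest, was in 5.12% and 7.05% (all 7.59%), so the nose-only share was itself below that of all regions. The Ebf site CCCNNGGG was in 4.84% and 6.27% (all 6.36%), again with both shares below all regions, and the nuclear receptor site AGGTCA in 9.89% and 11.4% (all 10.0%). Promoters weigh on the Tfap2 comparison, since 20.2% of promoters called in all 4 libraries held the site. More than 1 kb from a start site, Tfap2 was in 4.83% of maxillary-only, 6.88% of nose-only and 7.64% of all-4-library regions. The Ebf shares there were 4.71%, 6.12% and 6.27%. The grainyhead-like site AACCNGTT of epithelial cells was in 1.61% and 2.25% (all 1.68%). The Gata site AGATAA was in 8.77% and 10.1% (all 8.35%). The bicoid-class homeodomain site TAATCC of Pitx, Otx and Gsc factors was in 7.75% and 8.50% (all 6.81%). For this bicoid-class site the intervals overlapped, at 7.32 to 8.21% and 8.02 to 9.003%. Its single-library shares were 7.85% and 6.53% for the maxillary label against 7.25% and 7.48% for nose, so the order turned in replicate 1.

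Several motifs of facial regulators were near equal. The homeodomain site TAATTA, shared by Alx, Dlx, Msx, Prrx and Lhx factors, was in 6.61% of maxillary-only and 6.08% of nose-only regions (all 5.23%). The Runx site TGTGGT was in 15.5% and 14.6% (all 14.5%), the AP-1 site TGANTCA in 6.94% and 7.11% (all 6.55%) and the CTCF core AGGGGGC in 3.22% and 3.51% (all 5.18%). All motifs were searched on both strands and may overlap one another, as a Meis site and a GC-centred E-box do in the Agbl1 window.

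A count of every 6-base sequence, added after the motif shares were known, placed the 2 E-boxes at the head of 2080 sequences. CAGATG had the largest difference, 11.52 points, and CAGCTG the second, 7.21 points. The next were TCCAGA (7.17 points) and ATCTGG (6.42 points), which overlap the E-box and its flank, and the middle 98% of sequences lay between -2.21 and 3.56 points. CAGATG and CAGCTG were also first and second when the regions found only in replicate 1 of each label, or only in replicate 2, were compared. Among the other E-boxes, CACATG was in 18.8% and 15.7%, while the E-boxes centred on AA, AG and AC differed by 0.54 points or less and the GG-centred E-box, listed as CACCTG, was in 12.3% and 13.3%. The difference was therefore not shared by all E-boxes.

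The E-boxes were spread over the window, with fewer at its edges. In steps of 20 bp, maxillary-only regions had 25.6 to 40.7 GA-centred E-boxes per 1000 regions, against 15.2 to 23.2 in nose-only regions and 16.9 to 25.7 in regions called in all 4 libraries. In the maxillary-only regions the highest steps, at 40.7, lay 20 to 40 bp before and 40 to 60 bp after the summit, with 37.3 and 37.4 in the steps next to it. The lowest step of the maxillary-only regions lay above the highest step of the nose-only regions. Maxillary-only regions also held more than 1 such E-box more often, in 662 regions (4.81%) against 235 nose-only regions (1.91%), and 1501 of the regions called in all 4 libraries (2.48%).

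A homeodomain core stood at 1 preferred distance from the E-box in both directions. Of 21 gaps from 0 to 20 bp, a TAAT core upstream of the E-box was most frequent at 6 bp in every class. It stood there in 90 of 4834 E-boxes of maxillary-only regions (1.86%), 39 of 2488 in nose-only regions (1.57%) and 396 of 13277 in regions called in all 4 libraries (2.98%), while the median gap had 0.27%, 0.28% and 0.26%. As a share of regions, the composite with 6 bp was in 0.646% of maxillary-only (interval 0.526 to 0.795%), 0.318% of nose-only (0.232 to 0.434%) and 0.650% of the regions called in all 4 libraries. The composite of homeodomain core and E-box thus occurred in both directions and was no more frequent per E-box in the maxillary-only than in the shared regions.

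A second layout set 2 E-boxes on opposite strands 5 bp apart, as in the Mtor and Phf3 windows. It was in 16 maxillary-only regions (0.116%, interval 0.0716 to 0.189%) and 18 of the regions called in all 4 libraries (0.0297%). It was in 0 of 12276 nose-only regions, which allows a share of up to 0.0244%. A second GA-centred E-box on the same strand was also most frequent at a gap of 5 bp in the maxillary-only regions, at 23 of 4834 E-boxes, and in regions called in all 4 libraries, at 31 of 13277. These counts are small and the layouts were chosen after the counts were seen, so they stand as a description.

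**Figure D2:**
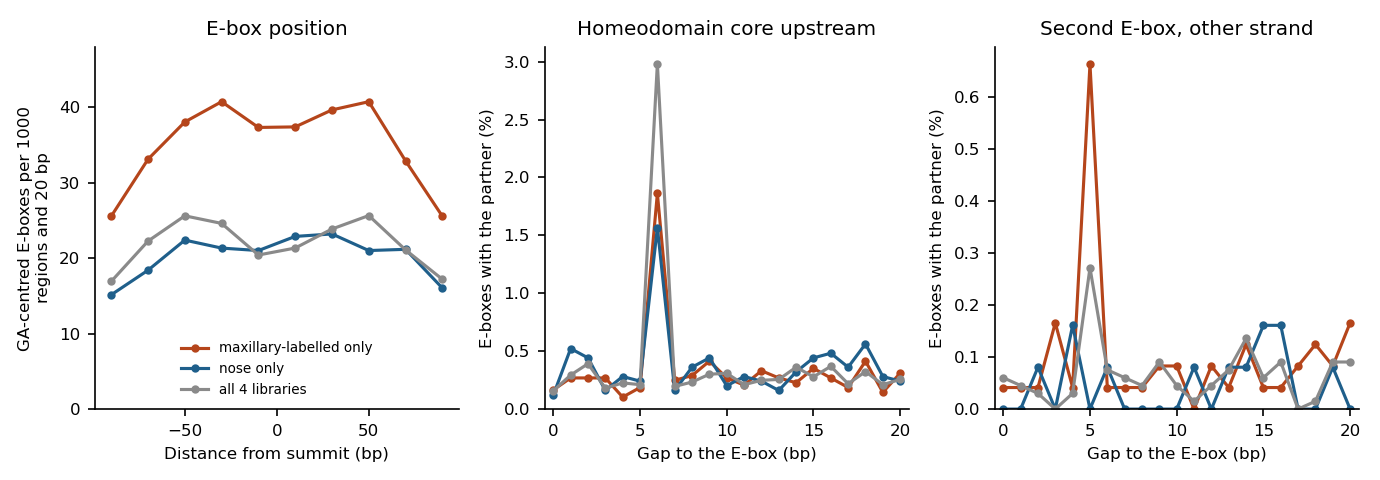
Left, GA-centred E-boxes per 1000 regions in steps of 20 bp from the summit (x axis, bp), for maxillary-only, nose-only and all-4-library regions. Middle and right, share of E-boxes (%) with a homeodomain core upstream, or a second E-box on the other strand, at each gap (x axis, bp): the core peaks at 6 bp in all 3 classes, and the second E-box peaks at 5 bp in maxillary-only and shared regions, with 0 in nose-only regions.

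The differing regions were mostly weak and distal. A peak's strength is given as −log10 of its q-value, larger being stronger. The median of the maxillary-only regions was 2.94 and 7.28 in the 2 maxillary-labelled libraries, and that of the nose-only regions 4.01 and 4.55 in the 2 nose libraries. Regions called in all 4 libraries had medians of 7.29 and 15.3 in the maxillary-labelled and 9.50 and 10.9 in the nose libraries. In their own libraries, 272 maxillary-only and 200 nose-only regions were within the best 50000 lines of both. In the whole deposited lists of the other label, 7569 maxillary-only regions (54.98%) and 7629 nose-only regions (62.1%) had no peak at all. The remainder had one ranked below the limit. These 2 shares cannot be set against each other, since the whole lists differ in length. Of the nose-only regions, 7.14% had a peak in the whole list of maxillary-labelled replicate 1 and 34.98% in that of replicate 2. Of the maxillary-only regions, 27.9% and 31.9% had one in the whole lists of nose replicates 1 and 2. Around the limit, 1714 and 1942 maxillary-only regions took their rank from the last 20000 kept lines of maxillary-labelled replicate 1 and 2, and 1688 and 1651 nose-only regions from those of nose replicate 1 and 2.

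Promoters were few among both kinds of region. Windows within 1 kb of a start site made up 2.76% of maxillary-only regions (interval 2.50 to 3.05%), 5.16% of nose-only regions (4.78 to 5.56%) and 28.5% of regions shared by all 4 libraries. The order of the 2 kinds turned at a −log10 q of at least 5, with 4.62% of maxillary-only and 3.30% of nose-only regions. The shares were 8.84% and 9.06% at 50000 lines, and 2.77% and 3.51% when ranked by fold, so the difference in promoters rested on how the lists were cut. Introns held 48.3% and 49.7%, and intergenic sequence 47.1% and 46.1%. The nearest protein-coding start site was a median of 69.0 kb and 68.3 kb away, against 22.2 kb for the shared regions. Median width was 332 bp and 276 bp, and median GC content was 46.3% in both.

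The libraries labelled mandibular process, which took no part in choosing the regions, shared more of the maxillary-only than of the nose-only regions. Both mandibular-labelled libraries called 24.3% of maxillary-only regions (interval 23.6 to 25.0%) and 18.7% of nose-only regions (17.999 to 19.4%), with 38.6% of all merged regions and 87.1% of the regions shared by the 4 libraries. Neither called 54.98% of the maxillary-only regions (7569, the same number as above but another set) and 58.8% of the nose-only regions. Of the 5 best-ranked regions in each direction, however, none of the maxillary-only regions had a mandibular peak, while 4 of the nose-only regions were called in both mandibular-labelled libraries.

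The best-ranked maxillary-only region, chr5:55049138-55050062, lay in a gene desert 1051 kb from Stim2 and had −log10 q of 21.1 and 35.6 in the 2 maxillary-labelled libraries. The Odf1 region, chr15:38169432-38170345, had 18.1 and 32.1. The third, in an intron of the lysyl hydroxylase gene Plod2, was chr9:92597626-92598212, with 20.4 and 30.5. The Agbl1 region had 16.6 and 35.1, and a region 56.0 kb from Cryz, chr3:154540399-154540949, had 15.7 and 35.4. In each of the 5, maxillary-labelled replicate 2 had the larger −log10 q, but at the limit of 200000 lines its −log10 q was also larger (4.31 against 2.01). By fold enrichment, replicate 1 was above replicate 2 at the Stim2 region (11.8 against 11.2) and the Plod2 region (11.0 against 9.52). It was below replicate 2 at the Odf1, Agbl1 and Cryz regions.

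On the nose side the Ipo5 region, chr14:120758300-120758949, had −log10 q of 28.3 and 34.03 in the 2 nose libraries. An intron of the vomeronasal receptor gene Vmn1r88 held chr7:13173005-13173414, with 36.3 and 29.5, and 38.3% of its window was annotated repeat. The Ctnnd2 region, in the gene for the neural adherens junction protein delta-catenin, had 23.3 and 29.3. A region 107 kb from Minar1, chr9:89515653-89516544, had 32.9 and 24.9, and an intron of the glutamate receptor gene Grm8 held chr6:27817970-27818397, with 19.9 and 24.4.

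No gene passed the test of its lean to one label. Each region was assigned to 1 protein-coding gene, that of the closest start site up to 100 kb away, and each gene with at least 5 differing regions was compared with the genome-wide maxillary share of 52.9% in exact binomial tests (two-sided, p-values adjusted by Benjamini-Hochberg). Of 570 genes tested, 0 passed at an adjusted p under 0.05 (0.0%), and the smallest adjusted p was 0.623. At an unadjusted p under 0.05 there were 32 (5.61%), 10 of them toward the maxillary label and 22 toward the nose label. These 2 counts cannot be set against each other, since of the 237 genes with 5 differing regions a split of 5 and 0 has p = 0.0646 and a split of 0 and 5 has p = 0.0233 in the exact test. A gene passing alone would have needed an exact p = 8.77e-05. Toward the nose label this takes at least 13 differing regions, and 10 of the 570 genes had as many. Toward the maxillary label it takes more, since splits of 13 and 0 and of 14 and 0 have exact p = 0.000308 and 0.00016. The test could thus not show a lean at most genes, and the genes below are a description of where differing regions gathered. The genes held few regions each, with a median of 6 and at most 20, and neighbouring regions were counted as independent.

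The strongest lean to the maxillary label was at Kalrn, which encodes a guanine nucleotide exchange factor of neurons, with 10 maxillary-only and 1 nose-only regions (unadjusted exact p = 0.0131). It had 33 and 35 called regions in the maxillary-labelled libraries, against 18 and 21 in the nose libraries. Bmper, a secreted modulator of Bmp signalling, had 7 and 0 (exact p = 0.0167), with 23 and 17 called regions against 12 and 10. The called regions of each library, here and below, include the differing regions themselves and add no separate support to the split. Hand2 and Btbd11 had the same split of 7 and 0 and the same p. Lrmda, named for melanocyte differentiation, had 8 and 1 (exact p = 0.0418), with 14 and 14 called regions against 5 and 7.

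A group of 5 genes had 6 maxillary-only and 0 nose-only regions each (exact p = 0.0328). These were Enpp6, a choline phosphodiesterase, Plac1, Ncoa2, a coactivator of nuclear receptors, Slf2, a factor of the Smc5/6 genome-stability complex, and Rab18, a small GTPase of lipid droplets. Slf2 had 10 and 9 called regions in the maxillary-labelled libraries and 2 and 2 in the nose libraries, the fewest nose calls of the group. Ncoa2 had 20 and 18 against 8 and 9.

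At Hand2 the maxillary-only regions ran on both sides of the gene, from 82.6 kb upstream to 47.4 kb downstream of the start site on chr8. The strongest, chr8:57348964-57349630, had −log10 q of 9.22 and 17.3 and was the one region called in both mandibular-labelled libraries. An intronic region of the antisense gene Hand2os1, chr8:57301982-57302336, 18.8 kb from the start site, had 4.96 and 10.6. The other 5 lay between 2.01 and 7.76 in both libraries. Of the 7 regions, 5 had no peak in the whole nose lists, and 10 further regions nearest to Hand2 were called in all 4 libraries.

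The smallest p of all genes was on the nose side, at Rapgef5, an exchange factor for Rap GTPases, with 1 maxillary-only and 11 nose-only regions (unadjusted exact p = 0.00222). It had 35 and 24 called regions in the maxillary-labelled libraries, against 41 and 44 in the nose libraries. The 11 regions lay 5.80 to 68.4 kb from the nearest Rapgef5 start site. Of them, 10 were called in a mandibular-labelled library, and 3 had no peak in the whole maxillary-labelled lists. Pde4d, a cyclic AMP phosphodiesterase, had the most differing regions of any gene, 5 and 15 (exact p = 0.0137), yet its called regions were 84 and 78 against 81 and 88 and the labels overlapped.

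Another 4 genes had 0 maxillary-only and 6 nose-only regions each (exact p = 0.011). Nr2f2 encodes the orphan nuclear receptor COUP-TFII, known in the upper face, B3gat2 a glucuronyltransferase of the HNK-1 carbohydrate, Sema3d a secreted semaphorin, and Tgif1 a homeodomain corepressor whose human gene is mutated in holoprosencephaly. Nr2f2 had 23 and 17 called regions in the maxillary-labelled and 22 and 30 in the nose libraries, which overlap. Sema3d had 10 and 6 against 16 and 16, B3gat2 8 and 8 against 14 and 15, and Tgif1 18 and 21 against 29 and 28. None of the 6 Sema3d regions was called in a mandibular-labelled library. Kitl, the ligand of the Kit receptor of melanoblasts, Fam110b, Fam84a and Gm5089 had 0 and 5 each (exact p = 0.0233).

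At Nr2f2 the 6 nose-only regions lay 22.4 to 59.8 kb from a start site of the gene, mostly within the neighbouring noncoding genes B130024G19Rik and Gm29683. The strongest, chr7:70390503-70391132, had −log10 q of 12.7 and 7.77 in the nose libraries. The others lay between 2.77 and 8.91. Of the 6, 4 had no peak in the whole maxillary-labelled lists and 1 was called in the mandibular-labelled libraries, in both of them.

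**Figure D3:**
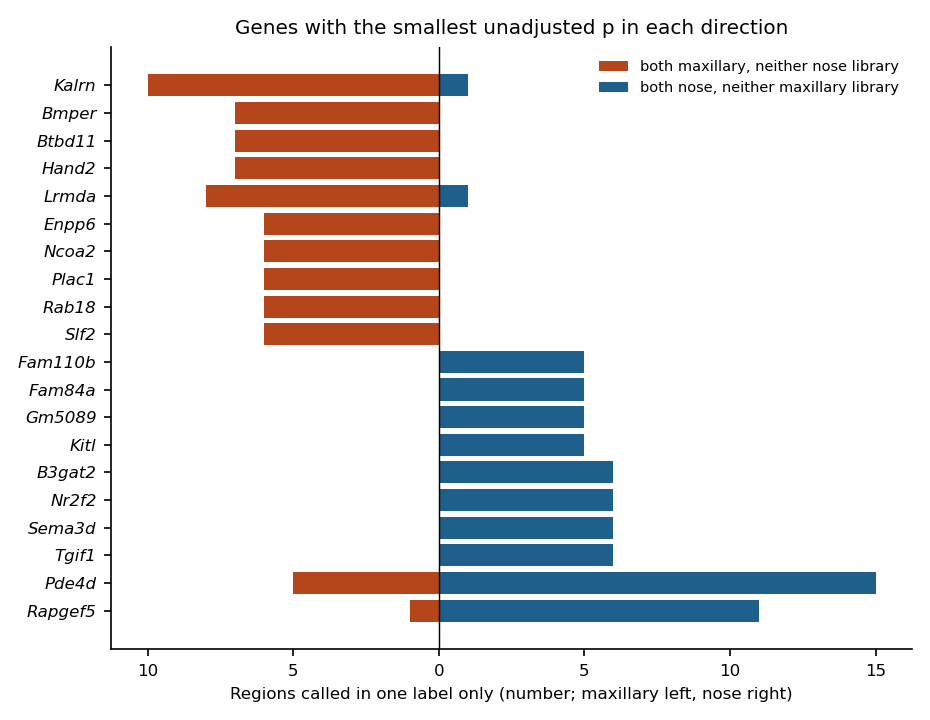
Number of maxillary-only regions (bars to the left) and nose-only regions (bars to the right) for the 10 genes with the smallest unadjusted p in each direction. Kalrn has 10 and 1, Hand2 7 and 0, Pde4d 5 and 15 and Rapgef5 1 and 11, and none passed after adjustment.

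Gene lists of the facial tissues showed counts on both sides. Across the lists, 0 member genes passed the adjusted test. Of 10 lower-jaw genes, 5 had more maxillary-only and 2 more nose-only regions, with 24 and 12 regions in all (66.7% maxillary-only against 52.9% over all differing regions). Hand2 gave 7 of the 24, and Ednra, the endothelin receptor of lower-jaw mesenchyme, had 6 and 3. The head organiser gene Gsc had 4 and 5. The 15 genes of general facial mesenchyme had 32 maxillary-only and 16 nose-only regions, with 10 genes on the maxillary and 2 on the nose side. Runx2, the regulator of bone formation, had 5 and 0 (unadjusted exact p = 0.0646), Prrx1, a mesenchymal homeobox gene, had 5 and 2, and Foxc1, a forkhead gene of neural crest, had 2 and 4. Runx2 had 20 and 14 called regions in the maxillary-labelled libraries, against 11 and 12 in the nose libraries.

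The upper-jaw list, which the label would name, was near the genome-wide share, with 13 maxillary-only and 15 nose-only regions over 8 genes. Foxd1, a forkhead gene, had 4 and 1. The first-arch list had 20 and 22, with Lhx8, a LIM homeobox gene of the oral side, at 3 and 8. Lhx8 had 20 and 20 called regions in the maxillary-labelled libraries, against 27 and 24 in the nose libraries.

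The nasal lists had more nose-only regions. The 16 genes of nasal and olfactory epithelium had 16 maxillary-only and 26 nose-only regions, with 5 genes on the maxillary and 7 on the nose side. Fezf1, a zinc finger gene of the olfactory epithelium, had 1 and 5 (unadjusted exact p = 0.107) with 11 and 12 called regions against 18 and 17. Pax6 had 1 and 4 and Sox2 had 3 and 2. The 10 genes of frontonasal mesenchyme had 16 and 22. Alx1 had 16 and 14 called regions against 24 and 21, while Foxl1 had 3 and 1. The strongest Alx1 region, chr10:102988853-102989378, 39.6 kb from the start site, had −log10 q of 21.1 and 16.1 in the nose libraries and was called in both mandibular-labelled libraries.

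Signalling genes divided evenly in most lists. Fgf genes had 7 and 7, with Spry4 at 2 and 1 and Spry2 at 1 and 2, and endothelin and Notch genes had 20 and 20, with the Notch target Hey1 at 1 and 5. Bmp genes had 12 and 10, with Bmp2 at 2 and 2 and Bmp7 at 2 and 4. Hedgehog genes had 11 and 9, with Gli2 at 5 and 1 and Gli3 at 4 and 4. Wnt genes had 17 and 13, with the Wnt agonist Rspo3 at 4 and 2 and the antagonist Sfrp2 at 1 and 6 (unadjusted exact p = 0.0573). Retinoic acid genes had 10 and 15, with the degrading enzymes Cyp26b1 at 4 and 3 and Cyp26a1 at 0 and 3. Clefting genes had 15 and 17, and axon guidance and cell sorting genes 30 and 23, with Sema3a at 5 and 2 and Epha7 at 2 and 4.

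Marker genes of other cells that either dissection could hold were looked at in the same way. Cartilage and bone genes had 15 and 9, with Sox9 at 3 and 4. Muscle genes had 12 and 10, with Tcf21 at 5 and 1 and Msc at 0 and 3. Surface and oral epithelium genes had 11 and 11, with Trp63 at 5 and 4, and pharyngeal endoderm genes 6 and 9, with Nkx2-3 at 3 and 0 and Pax1 at 0 and 4. Neuron genes had 8 and 10, with Elavl4 at 1 and 4 and Isl1 at 2 and 1, and forebrain genes 8 and 11, with Dlx2 at 2 and 3. Eye genes had 9 and 6, with the lens gene Foxe3 at 4 and 0. Glial and melanoblast genes had 7 and 4, with Mitf at 3 and 1 and Foxd3 at 2 and 2, endothelial genes 10 and 11, with Erg at 5 and 5, and blood genes 3 and 4, with Runx1 at 2 and 2. Of the Hox genes of the second and later arches, Hoxb1, Hoxb3 and Hoxd3 had 1 and 0 each while Hoxa2, Hoxa3 and Hoxb2 had none, and these were named after their values were seen. Hoxb1 had 2 and 3 called regions in the maxillary-labelled libraries, against 0 and 1 in the nose libraries, and Hoxb3 had 2 and 2 against 1 and 0. The part of these cells in the differing regions was not tested.

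**Figure D4:**
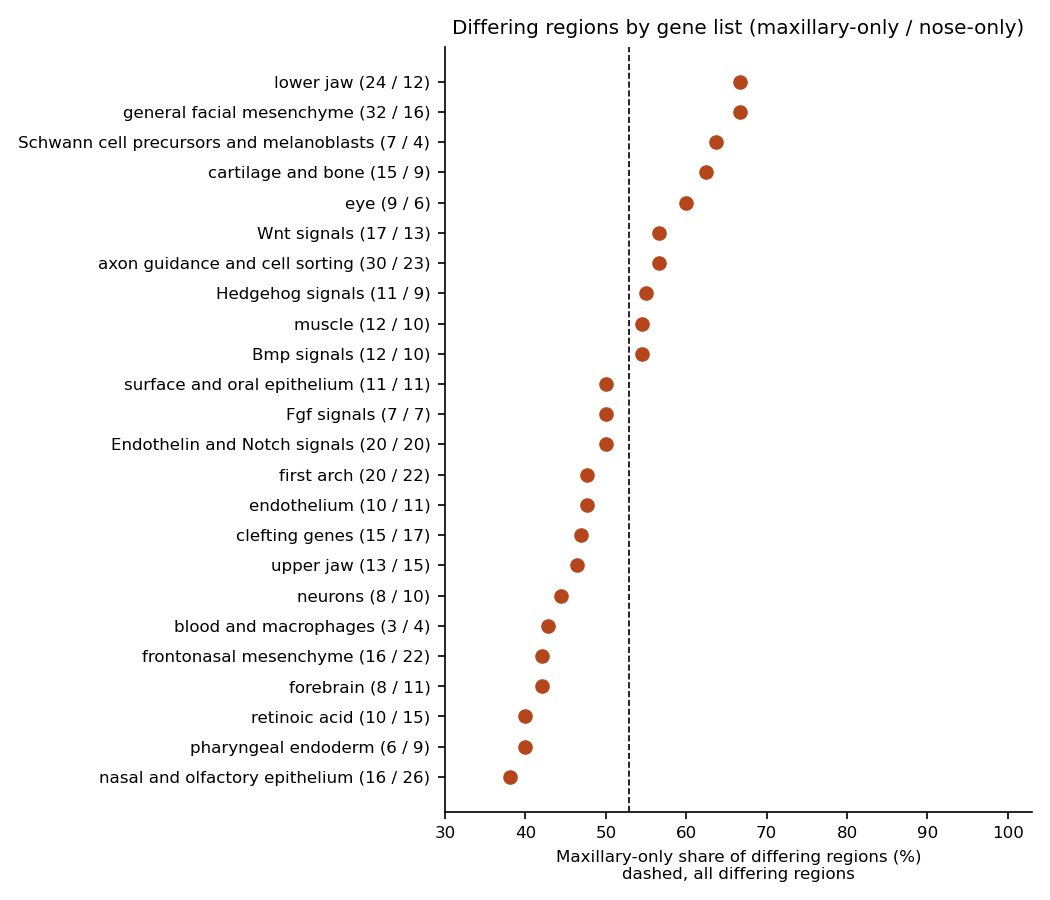
Share of maxillary-only regions among the differing regions nearest to the genes of each list (x axis, %), with the counts of maxillary-only and nose-only regions after each name. The dashed line is the share over all differing regions, 52.9%; the lower-jaw list and the general facial mesenchyme list are at 66.7% and the nasal and olfactory epithelium list at 38.1%.

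By position, no 1 Mb bin and no chromosome passed. Of 2116 bins with at least 5 differing regions, 0 passed the adjusted test (0.0%), the smallest adjusted p was 0.163, and 159 (7.51%) had an unadjusted p under 0.05, of which 71 leaned to the maxillary and 88 to the nose label. The bin from 25 to 26 Mb of chr12 around Id2, a helix-loop-helix inhibitor without a DNA-binding domain, had 13 and 0, and the bin from 23 to 24 Mb of chr9 around Bmper had 22 and 3 (unadjusted exact p = 0.000308 and 0.000388). Of 20 chromosomes tested, 0 passed, the smallest adjusted p was 0.0623, and 3 had an unadjusted p under 0.05. That smallest value was shared by chr11 (57.2% maxillary-only) and chr15 (48.7%). Both passed when ranked by fold, with equal numbers of distinct intervals, with a cover of 50% or 200 bp, and with all 6 libraries merged. Neither passed at 100000 lines or with absence judged on whole lists. In lists of the deposited length 3 bins passed, and 2 and 1 bins passed without nose replicate 1 and without nose replicate 2. Between 0 and 4 chromosomes passed when 1 library was left out, the 4 being without maxillary-labelled replicate 2, and 9 passed in the lists of deposited length.

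The libraries differed in ways that touch the comparison. The deposited lists held 219779 and 299726 lines for the maxillary label and 275387 and 294926 for nose. The cut made the number of lines equal, but several lines can share 1 interval. The kept lines held 148178 and 115940 distinct intervals in the maxillary-labelled lists and 131154 and 124930 in the nose lists. At the limit of 200000 lines the −log10 q was 2.01 and 4.31 against 2.27 and 2.63, so equal length set unequal strength, and maxillary-labelled replicate 1 contributed 31936 of the 84076 regions found in 1 library. Called regions on the Y chromosome numbered 49 and 15 in the maxillary-labelled and 39 and 13 in the nose libraries, so they moved with the replicate number and not with the label. Their part in the differing regions was not tested.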

How the data were processed

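Deposited peak lists in narrowPeak format, 1 per library, were used as deposited. Per the labels, reads were single-end and 50 bp long, from Nextera Tn5 libraries of about 50000 nuclei. Bowtie2, SAMtools and the build mm10 are named, without versions, in processing notes of the submitters, and the peak caller is not given in the sources used here. The authors gave each line a fold enrichment (a ratio), −log10 of a p-value and of a q-value, a score and a summit offset. The lowest deposited −log10 q was 2.55 in maxillary-labelled replicate 2 and 1.30 in each other maxillary-labelled or nose list, and depth in reads is unknown. The −log10 q and the fold ratio ranked the lines, ties beyond these being broken by a hash of position, and the deposited score was checked against −log10 of the p-value only.

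The best 200000 lines of each list were kept, merged at 1 bp of overlap, and each region was called in a library when a kept line overlapped it. A presence call carries no count of reads, so shares were given with 95% Wilson intervals that cover counting error only, with 3 counts as the limit that a count of 0 allows. Genes with at least 5 differing regions, 1 Mb bins and chromosomes were tested by exact two-sided binomial tests (scipy 1.17.1, statsmodels 0.14.6, Python 3.11.15), checked on simulated directions. Start sites came from GENCODE vM21, sequence and repeats from RefSeq GRCm38.p6. Motifs were searched in 201 bp windows with pysam 0.24.0.

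Named genes were the 10 with the smallest unadjusted p in each direction, from each of 25 gene lists the member with the most differing regions in each direction (at least 2), and 9 genes of the label check, besides the 5 best-ranked regions in each direction among those absent from the whole lists of the other label, ordered by the worse of their 2 ranks. The members, gene lists, motifs and rules were chosen with earlier results of these data known. Alternatives varied the list length, ranking, overlap, gene distance and left-out libraries. A few of the items these rules name are not reported here.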

Additional observations from a re-analysis of the deposited data

How the results depend on the processing

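No paired analysis was possible because a region that differs between the labels is called in both libraries of 1 label and in neither of the other, so that matching replicate 1 with 1 and 2 with 2, or crossing them, selects the same regions with the same directions.

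Shorter or stricter lists lowered the counts. There were 6312 maxillary-only and 5583 nose-only regions at 100000 lines, 2671 and 2263 at 50000 lines, 5536 and 4634 at a −log10 q of at least 5, and 7569 and 7629 with absence judged on the whole lists of the other label. Leaving out 1 library gave 19416 to 49000 maxillary-only and 17553 to 34860 nose-only regions, and lists as deposited gave 22328 nose-only regions. Genes past the test were 0 under every alternative. Bins of 1 Mb past the test were 3 with lists as deposited and 0 to 2 with 1 library left out. Chromosomes past the test were 9 with lists as deposited, 2 at 50000 lines, 1 at a −log10 q of at least 5, 2 when ranked by fold, 2 with equal numbers of distinct intervals, 2 with a cover of 50% or 200 bp, 2 with all 6 libraries merged, and 0 to 4 with 1 library left out. The GA-centred E-box difference was 10.4 points with lists as deposited, 14.0 at 50000 lines, 12.7 at a −log10 q of at least 5, 10.5 with equal numbers of distinct intervals, 12.7 with absence judged on whole lists, 7.11 in windows of 50 bp a side, and 5.79 to 10.7 with 1 library left out. The share called in both mandibular-labelled libraries was 26.4%, 26.0% and 25.6% of maxillary-only regions with lists as deposited, at 100000 and at 50000 lines, and 21.7% and 19.5% of nose-only regions with lists as deposited and at 50000 lines. The promoter share of maxillary-only minus nose-only regions, -2.40 points, became 1.32 points at a −log10 q of at least 5 and -5.31 to -1.15 with 1 library left out. The cause of these changes was not tested.

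The named genes are given as the maxillary-only share of their differing regions minus the genome-wide share, in percentage points. Among the named genes with at least 5 differing regions, the sign turned in the cases that follow. Genes with fewer regions are not listed there, and several of them turned as well. With 1 library left out, the range was -22.2 to 11.8 for Dlx6, -11.0 to 14.2 for Mitf, -7.37 to 22.5 for Isl1 and -18.2 to 0.55 for Spry2. The listed cases begin here. At a −log10 q of at least 5 the value was -21.1 for Sema3a. With absence judged on whole lists the value was 0.20 for Gli3, 7.34 for Gsc and -9.80 for Trp63. At 100000 lines the value was -3.06 for Sema3a and -13.1 for Trp63. With equal numbers of distinct intervals the value was 5.16 for Gli3 and -24.7 for Trp63. With a cover of 50% or 200 bp the value was 10.3 for Gli3 and -14.7 for Sema3a. With every gene within 100 kb the value was 13.8 for Dlx2 and 1.68 for Erg. With lists as deposited the value was 27.3 for Dlx2, 15.2 for Gli3, 16.2 for Gsc, -1.89 for Rspo3 and -8.62 for Trp63. With genes up to 50 kb the value was -12.9 for Cyp26b1. With genes up to 500 kb the value was 7.14 for Epha7 and 7.14 for Foxc1. When ranked by fold the value was -21.1 for Trp63. With tied lines kept the value was 3.86 for Erg, 3.86 for Gli3 and -6.14 for Trp63. With 1 library left out, the range was -5.25 to 11.8 for Cyp26b1, -17.9 to 4.06 for Dlx2, -0.75 to 31.0 for Ednra, -38.8 to 18.6 for Epha7, -11.1 to 6.92 for Erg, -5.51 to 44.1 for Foxd1. It was -7.47 to 16.3 for Gli3, -24.4 to 3.42 for Gsc, -0.75 to 17.3 for Rspo3, -7.89 to 10.2 for Sema3a, -10.5 to 24.1 for Trp63. None of these genes passed the adjusted test under any setting. A gene that fell below 5 differing regions under an alternative was not given a value there. Keeping or dropping tied lines was chosen after seeing the data.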
